A study of Mus musculus with 10 samples.

Results

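RGCs carry their axon on a lattice of microtubules, and 10 genes of the proteins that bind tubulin or microtubules were followed here in mouse RGCs with and without optic nerve crush (ONC). They are the 4 stathmins (Stmn1, Stmn2, Stmn3, Stmn4), the structural microtubule-associated proteins Map1a, Map1b, Map2 and Map4, and the collapsin response mediator proteins Dpysl2 (also called CRMP2) and Crmp1. They were chosen by symbol, and all 10 were found among the 34254 genes that were counted, of which 26033 had at least 1 UMI. UMIs are random tags read once for every RNA molecule captured, and their number was the measure of expression.

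The uninjured group came from wild-type 129S1/SvImJ mice, labelled as of both sexes, at 12 weeks of age, and the injured group from mice of that strain and age whose RGCs were collected 2 weeks after ONC, a crush that severs the axons of RGCs in the optic nerve. Retinas were pooled, 10 for each batch, and RGCs were enriched by immunopanning against Thy1, after macrophages (and, in the paper's methods, amacrine cells) had been depleted, and processed for droplet scRNA-seq. The series' design text also names FACS, which the passage of the paper's methods on uninjured and injured libraries does not. Cells of 6 uninjured libraries (98 to 651 cells, 1683 in all) and 4 injured libraries (273 to 527 cells, 1609 in all) were analysed. To limit doublets the authors set a maximum of UMIs per cell, and doublets were not called again here; cells with markers of another cell class were left out in an alternative. Total UMIs ranged from 2839693 to 23180399 in uninjured and from 4698799 to 8860536 in injured libraries, and median UMIs per cell were 20437 to 34337 in the former and 11257 to 14695 in the latter. Because animals were pooled, a p-value below measures spread between libraries of pooled retinas, not between animals. The uninjured libraries were alike in pairs, and whether the libraries of a pair came from separate pools was not tested.

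Microtubules grow and shrink by adding and losing tubulin at their ends. Stathmins bind free tubulin and favour shrinkage, MAP1, MAP2 and MAP4 proteins bind along the lattice and stabilise it, and CRMPs bind tubulin dimers and aid assembly. In neurons these families shape the growth cone and separate axon from dendrite, with Stmn2 and Map1b known from growing axons and Map2 used as a marker of dendrites.

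Some libraries stood apart or shared cells. Injured 3 and 4 had 421 barcodes in common of their 527 and 471, so the average of their counts stood for 1 sample, called injured 3/4. The comparison was thus of 6 uninjured with 3 injured samples. Between any other libraries at most 1 barcode was in common. Xist, an RNA of female cells, had UMIs in 62.1% (injured 1) and 67.4% (injured 2) of cells, while elsewhere the share was 0.569% or less (0 to 0.461% in uninjured libraries). The labels give both sexes for all libraries, and the shares in the uninjured libraries and in injured 3 and 4 go against that. For the viral reporter mCherry, the shares were 86.0% in injured 3, 84.3% in injured 4, 7.99% in injured 1 and 15.02% in injured 2, and no uninjured cell had a UMI of it. Uninjured libraries fell into similar pairs (1 and 2, 3 and 4, 5 and 6), and the members followed those pairs: mean Stmn1 was 1658, 1096 and 2445 CPM in them, and mean Map2 was 132, 199 and 149 CPM. The test took the 6 as separate samples, and an alternative summed each pair, and injured 1 with 2 and 3 with 4, to 1 sample. CPM is the gene's count scaled to 1000000 UMIs of the sample, after TMM scaling.

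Markers of the labelled cell type and of other types were read. The paper's methods used Rbpms, Slc17a6, Sncg and Tubb3 to identify RGCs, and Thy1 for immunopanning. The presence of these RGC markers was thus fixed in advance and is no check of identity. All 8 RGC markers had UMIs, Sncg being the most abundant, and their summed level, here as CPM of plain totals without TMM, was 6080 to 7778 CPM (median 6783) in uninjured and 4122 to 5375 CPM in injured samples. All 7 amacrine markers were also present (Gad1 the most abundant), at a sum of 49.4 to 188 CPM in uninjured and 55.1 to 143 CPM in injured samples. All 7 Müller glia markers (Dkk3 the most abundant) summed to 112 to 193 and 107 to 133 CPM. The horizontal cell markers, led by Calb1, were 2 of 3, with Lhx1 at 0, and summed to 60.6 to 148 CPM in uninjured but 12.6 to 22.8 CPM in injured samples. All 8 microglia and macrophage markers (Cx3cr1 the most abundant) summed to at most 19.5 CPM in any sample. Bipolar markers (6 of 6, led by Pcp2) reached at most 7.03 CPM and cone markers (4 of 4, led by Opn1mw) at most 1.81 CPM. Astrocyte markers (3 of 3, led by S100b) reached at most 26.0 CPM and oligodendrocyte markers (3 of 3, led by Mbp) at most 19.7 CPM. Endothelial markers (3 of 3, led by Pecam1) reached at most 3.17 CPM and pericyte markers (2 of 3, led by Rgs5, Kcnj8 at 0) at most 3.52 CPM. The part of any of these cell types in the results below was not tested.

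**Figure D1:**
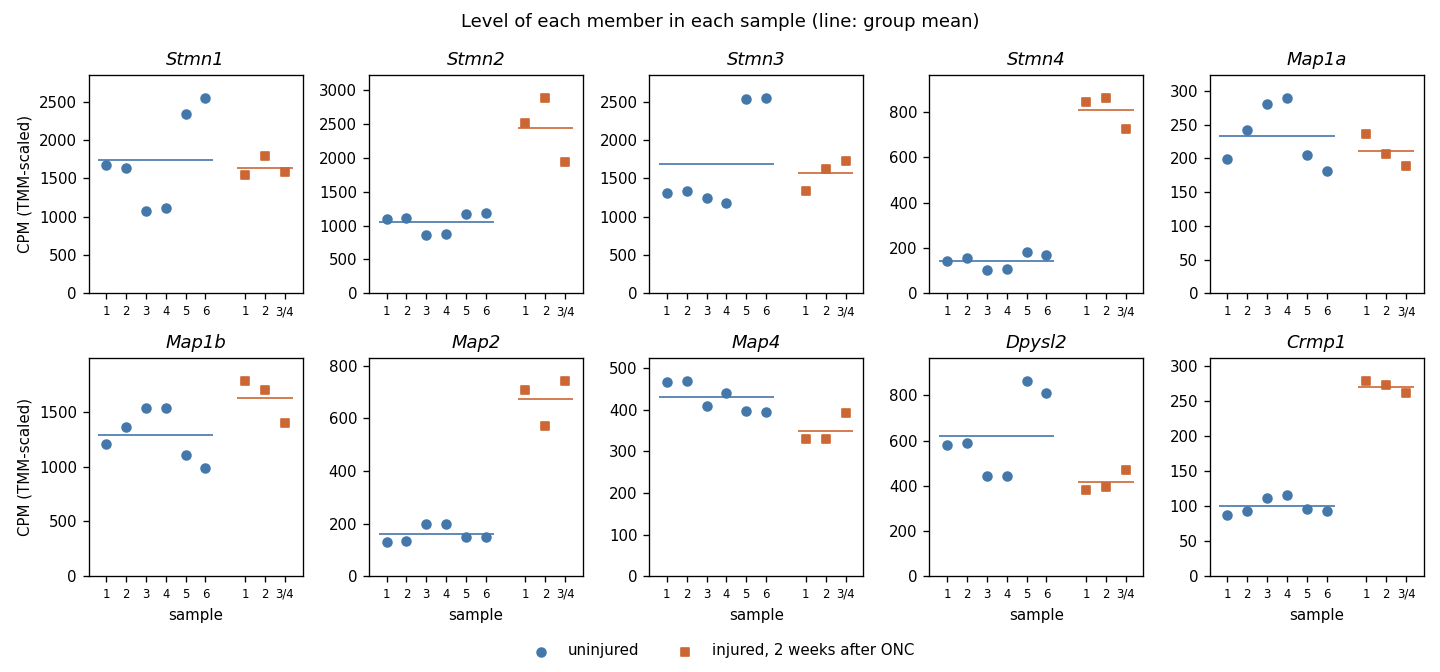
Level of each member in CPM (vertical axes, from 0) in the 6 uninjured samples (circles) and the 3 injured samples (squares, with injured 3 and 4 averaged), with group means as lines. Stmn2, Stmn4, Map2 and Crmp1 lie higher in every injured sample than in any uninjured sample.

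Of the 4 stathmins, Stmn2 and Stmn4 were the ones that rose after ONC. Stmn4, a neuronal stathmin on chromosome 14 (66581745 to 66599131, forward strand, in mm39), lay between 101 and 182 CPM in uninjured samples, with a median of 149. In injured 1, 2 and 3/4 it was found at 843, 861 and 727 CPM. No uninjured sample reached even the lowest injured one. The log2 fold change was 2.50 (standard error 0.20, a 5.66-fold rise), with an adjusted p = 1.48e-06 in edgeR's quasi-likelihood test. Stmn2, a stathmin of growing axons on chromosome 3 (8574151 to 8626667, forward strand), lay between 855 and 1187 CPM (median 1099.9) in uninjured samples. It was 2519, 2879 and 1938 CPM in the injured ones. Injured 3/4 was the lowest of these and still above all uninjured samples. Stmn2 rose by 1.22 on the log2 scale (2.33-fold, standard error 0.18), with an adjusted p = 1.90e-04.

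Stmn1, the most widely expressed stathmin, had 1074 to 2545 CPM (median 1658) in uninjured and 1549, 1792 and 1578 CPM in injured samples. Injured values fell inside the uninjured range. On the log2 scale the change was -0.08, with a standard error of 0.28 and an adjusted p = 0.842. Stmn3, another neuronal stathmin, had 1182 to 2547 CPM (median 1323) and then 1339, 1625 and 1733 CPM, again inside the uninjured range. The corresponding change was -0.11 with a standard error of 0.29 (adjusted p = 0.784). Uninjured 5 and 6 were by far the highest for Stmn3, at 2538 and 2547 CPM. Without those libraries, a choice made after seeing the data, its log2 fold change was 0.30 (adjusted p = 0.0571). In libraries 1 to 4 of each condition, with injured 3 and 4, which share barcodes, as separate samples, it was 0.33 (adjusted p = 0.0236, in a range of 0.0236 to 0.990).

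Within the stathmins, the mix of UMIs moved. Stmn4 made up 2.66 to 3.68% of stathmin UMIs in uninjured samples and 12.0 to 13.5% in injured ones. Stmn2 went from 18.4 to 26.8% to 32.4 to 40.3%. The shares of Stmn1 (32.8 to 39.7%, then 24.8 to 26.5%) and Stmn3 (31.0 to 40.7%, then 21.4 to 29.0%) were lower in every injured sample than in any uninjured one. Because the 4 shares sum to the whole, a larger share of Stmn2 and Stmn4 lowers the others. Stathmin UMIs as a group were 3436 to 6089 of every 1000000 UMIs in uninjured and 5882 to 6782 in injured samples, and the groups overlapped. These shares are a description, with no test.

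**Figure D2:**
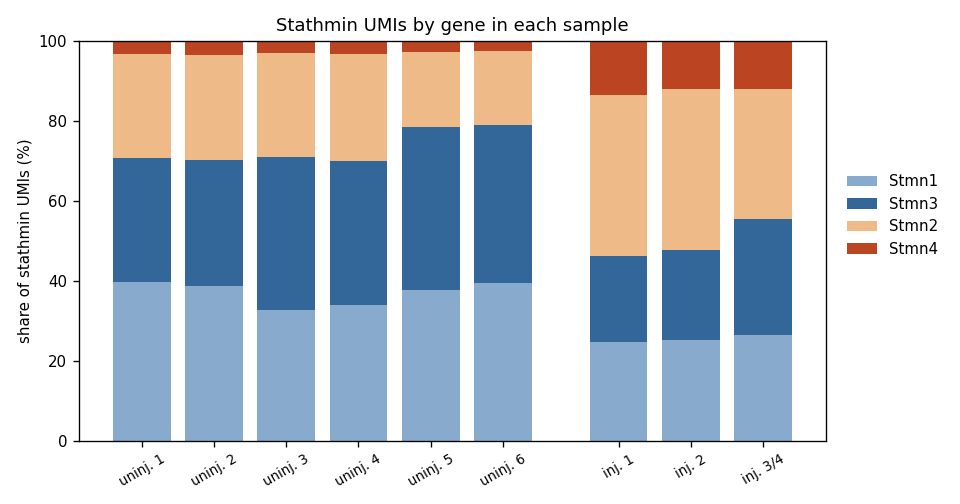
Share of each stathmin in the stathmin UMIs of each sample, as stacked bars in percent, for 6 uninjured (uninj.) and 3 injured (inj.) samples. Stmn4 takes 2.66 to 3.68% of uninjured and 12.0 to 13.5% of injured bars.

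Among the structural proteins, Map2 rose. This stabiliser of dendritic microtubules lies on chromosome 1 (66214327 to 66481746, forward strand, in mm39) and was found at 129 to 199 CPM (median 149) in uninjured samples. Injured 1, 2 and 3/4 had 706, 569.7 and 742 CPM. The lowest injured sample, injured 2, was above every uninjured sample. Map2 thus rose by 2.07 on the log2 scale, with a standard error of 0.17 and an adjusted p = 2.59e-06. Map1b, a protein of growing axons, had 985 to 1536 CPM (median 1287) in uninjured and 1781, 1702 and 1396 CPM in injured samples, a difference of 0.33 on the log2 scale (standard error 0.19, adjusted p = 0.167). Injured 3/4 was inside the uninjured range and the other injured samples were above it. Map1b was called higher without uninjured 3 and 4 (0.50, adjusted p = 0.0481). Without injured 1 and 2, which left injured 3/4 as the only injured sample, its change was 0.12. Its relative Map1a had 181 to 289 CPM (median 223) and then 236, 206 and 189 CPM, with a log2 fold change of -0.15 (standard error 0.18, adjusted p = 0.530). Map1a was called lower in libraries 1 to 4 (-0.32, adjusted p = 0.0459, in a range of 0.0459 to 0.866) but not with the replicate block (adjusted p = 0.115). Map4, the widely expressed member of the MAP2 and tau family, had 395 to 469 CPM (median 425) in uninjured and 329.5, 329 and 393 CPM in injured samples. Every injured sample was below every uninjured one, injured 3/4 by a small margin, with a log2 fold change of -0.29 (standard error 0.14, adjusted p = 0.105). Injured 4 alone was at 396 CPM, with TMM scaling over the 10 libraries, and uninjured 6 at 395 CPM, with scaling over the 9 samples. The scales differ, so these values cannot tell whether Map4 of injured 4 alone would overlap the uninjured samples. Map4 was called lower in 5 of the 33 alternatives, among them without uninjured 5 and 6 (-0.35, adjusted p = 0.0173). Over alternatives with more than 1 injured sample its adjusted p ranged from 0.00438 to 0.456. Its change was -0.12 without injured 1 and 2, which left only injured 3/4.

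Of the CRMPs, Crmp1 rose. It lies on chromosome 5 (37399284 to 37449481, forward strand, in mm39) and encodes a protein of axon guidance that acts downstream of semaphorins. Uninjured samples had 87.3 to 117 CPM (median 94.5), and injured 1, 2 and 3/4 had 279, 272 and 262 CPM. The injured samples were close to each other and all above the uninjured ones. The log2 fold change was 1.44 (standard error 0.13, 2.71-fold), with an adjusted p = 3.46e-06. Dpysl2, which binds tubulin dimers and promotes axon growth, had 443 to 864 CPM (median 584) in uninjured and 383, 396 and 468 CPM in injured samples. Uninjured 5 and 6 were the highest, and injured 3/4 overlapped the lowest uninjured samples, 3 and 4. The difference was -0.58 on the log2 scale with a standard error of 0.24 (adjusted p = 0.0672). Dpysl2 was called lower without uninjured 3 (adjusted p = 0.0418) or without uninjured 4 (adjusted p = 0.0397). Over alternatives with more than 1 injured sample its adjusted p ranged from 0.0107 to 0.328. Its log2 fold change ranged from -0.75 to -0.26 over all alternatives. It was -0.31 without uninjured 5 and 6 (adjusted p = 0.0792), -0.27 in libraries 1 to 4 and -0.26 in cells with 3 to 5% Malat1, of which uninjured 5 and 6 held only 7 and 8, against 126 and 278 in uninjured 3 and 4.

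edgeR therefore called 4 of 10 members higher, where 21.3% of the 14234 genes tested were higher, and 0 of 10 lower, where 22.7% were lower. In either direction 44.0% of genes were called, beside 4 in 10 members. This share of genes moved with the setting. Where the same 4 members were called it was 27.1% with similar libraries summed and 32.9% in cells with 3 to 5% Malat1. It was 59.0% in libraries 1 to 4, where 7 members were called. At an unadjusted p under 0.05 the count was 5, the fifth being Dpysl2, as for 7323 of the 14234 genes. Both DESeq2 and limma-voom called Map4 and Dpysl2 lower, where 3328 and 4152 of 14234 genes were lower. Groups did not overlap for 5 members (the 4 that rose and Map4), against 42.9% of all genes. The median log2 fold change of the members was 0.13, and that of all genes tested was -0.03. With library totals alone in place of TMM the median of all genes was -0.10.

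**Figure D3:**
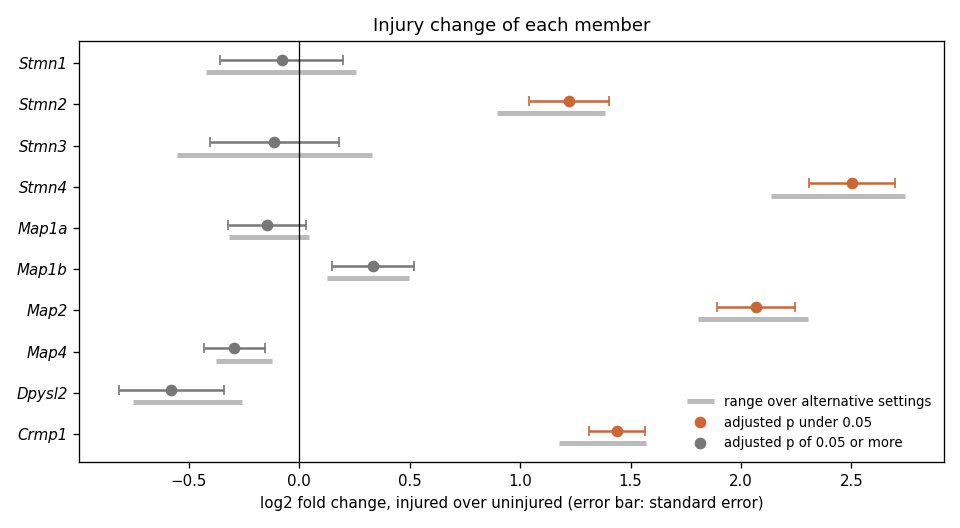
log2 fold change of each member between injured and uninjured samples (horizontal axis) with its standard error, coloured where the adjusted p was under 0.05, above a grey bar for the range over 33 alternative settings. Stmn4 (2.50), Map2 (2.07), Crmp1 (1.44) and Stmn2 (1.22) lie to the right of 0 with their whole range.

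Depth and quality moved with injury. Median Malat1 was 1.72 to 4.82% of a cell's UMIs in uninjured and 6.37 to 7.78% in injured libraries, and injured cells were shallower. The median share of ribosomal protein UMIs was 2.47 to 4.41% and 5.20 to 5.94%, and that of mitochondrial UMIs 2.84 to 5.63% and 1.48 to 3.15%, the latter overlapping. The part of these measures in the results was not tested beyond the alternatives. The 4 calls were kept in all 33 alternatives, which include cells thinned to 5000 UMIs, cells with 3 to 5% Malat1 (7 to 278 cells in a library), cells without Xist, cells without mCherry (74 cells each in injured 3 and 4), similar libraries summed, and injured 1 and 2 or injured 3 and 4 left out. Leaving out injured 1 and 2 left 1 injured sample (injured 3/4), so the uninjured samples alone gave the spread in that fit. Over all alternatives the log2 fold change of Stmn4 ranged from 2.14 to 2.74, that of Map2 from 1.81 to 2.30, that of Crmp1 from 1.17 to 1.57 and that of Stmn2 from 0.89 to 1.39. In fits with more than 1 injured sample the adjusted p, in that order, was at most 5.57e-04, 7.38e-04, 0.00178 and 0.0417. With similar libraries summed (3 uninjured and 2 injured samples) the adjusted p was 5.57e-04 for Stmn4, 7.38e-04 for Map2, 0.00178 for Crmp1 and 0.0233 for Stmn2, and 4181 genes were called in place of 6256.

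The share of cells with a UMI was taken after each cell was thinned to 5000 UMIs, which left out 9 uninjured and 37 injured cells. The background of free RNA was read from Pdc, a photoreceptor gene taken for this after its values were seen, which was found in 0.224% of thinned uninjured and 0.247% of thinned injured cells (mean over samples). Stmn4 was present in 50.1% ± 8.13 (SD, n = 6) of uninjured and 92.8% ± 3.16 (SD, n = 3) of injured cells. Map2 went from 46.2% ± 9.39 to 73.3% ± 2.62, and Crmp1 from 43.6% ± 2.40 to 67.9% ± 2.37. For Dpysl2 the share was 93.3% ± 3.40 in uninjured and 81.4% ± 3.91 in injured samples, and for Map1a 63.0% ± 6.24 and 53.6% ± 2.59. The groups did not overlap for these 5 members, as for 30.5% of the 14234 genes tested for the injury change. At 8000 UMIs Map1a overlapped and 4 members did not (33.6% of genes), and with all UMIs the members without overlap were Stmn4, Map1a, Map4 and Dpysl2 (59.7% of genes). At 5000 UMIs the other 5 overlapped, with Map4 at 84.6% and 75.4%, and Stmn1, Stmn2, Stmn3 and Map1b between 96.0% and 99.6% in both conditions. Without thinning, injured cells being shallower, the shares were 89.5% and 98.8% for Stmn4, 81.6% and 84.04% for Map2, 89.2% and 90.9% for Crmp1, and 0.604% and 0.366% for Pdc.

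**Figure D4:**
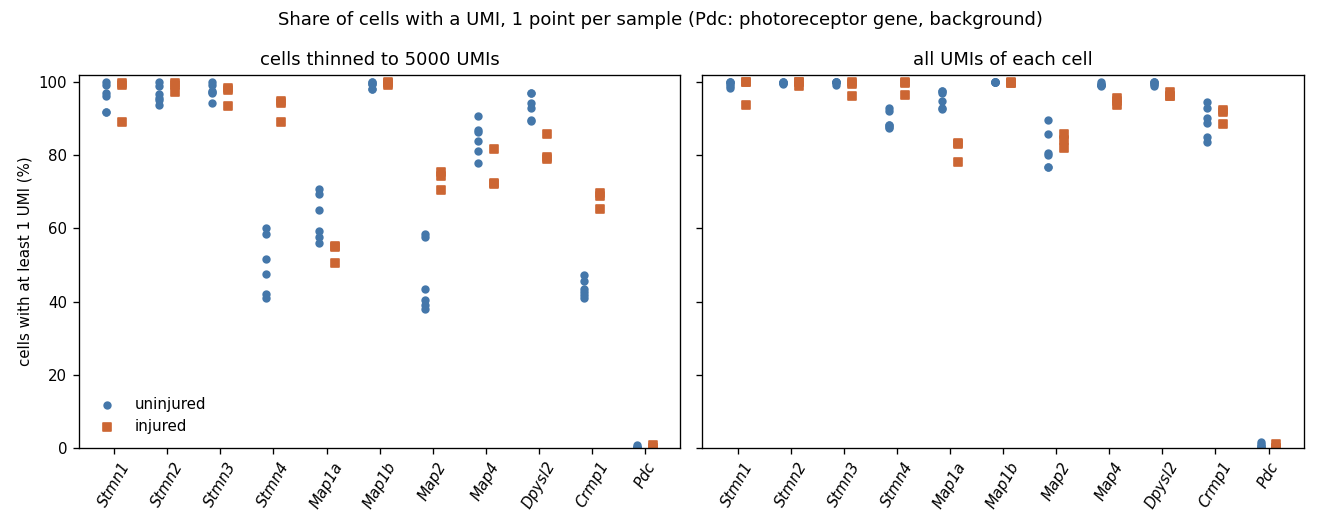
Percent of cells with at least 1 UMI (vertical axis) for each member and for Pdc, 1 point per sample, after thinning to 5000 UMIs (left) and with all UMIs (right). Uninjured samples are circles and injured samples squares; Stmn4, Map2 and Crmp1 differ most on the left, while Pdc stays near 0.

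Spread among cells also differed by member. For Map2 the variance over the mean of thinned UMIs was 1.40 ± 0.12 (SD, n = 6) in uninjured and 4.35 ± 1.02 (SD, n = 3) in injured samples, and the ninetieth percentile cell held a mean of 2.33 and 7 UMIs. For Stmn2 the ratio was 1.75 and 3.79, and for Stmn4 1.23 and 2.35. Crmp1 was close to 1 in both (0.955 and 1.16), as was Map4 (1.13 and 1.13). This ratio can grow with the mean, and the coefficient of variation (SD over mean) was 1.38 and 1.23 for Map2, 0.575 and 0.580 for Stmn2, 1.27 and 0.709 for Stmn4, and 1.31 and 0.964 for Crmp1.

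Across thinned cells of a sample, Pearson r of log(1 + UMIs) described how members varied together. The cells of a sample share a library and depth, and no p was computed. Stmn1 and Stmn2 had a mean r of 0.47 in uninjured and 0.50 in injured samples (ranges 0.24 to 0.68 and 0.32 to 0.67), and Stmn2 and Stmn3 had 0.39 and 0.40. For Stmn1 and Stmn4 r was 0.20 and 0.41. Stmn4 and Map2, both of which rose, had r of -0.08 and -0.30, with a range of -0.36 to -0.27 over the injured samples. Stmn1 and Map2 had -0.21 and -0.26. Map1a and Map1b had 0.13 and 0.18, and Stmn2 and Crmp1 0.08 and 0.21, the latter above the 0.15 of Stmn3 and Stmn4 in injured samples.

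The 2 genes most like each member across cells, over 9 samples and 2869 genes present in at least 20% of thinned cells in every sample, were Tmsb10 (mean r 0.62) and Ppia (0.58) for Stmn1, Stmn1 (0.48) and Tmsb10 (0.47) for Stmn2, and Ppia (0.56) and Gapdh (0.52) for Stmn3. Stmn4 was most like Eif1 (0.29, from 0.05 to 0.57 over samples) and H3f3b (0.28, from 0.09 to 0.63), and Map2 most like Lrrc4c (0.38) and Pcdh9 (0.36). For Map1a, Map1b, Map4, Dpysl2 and Crmp1 the highest r was at most 0.21, which in sparse counts is weak. The order rests on a mean over uninjured and injured samples, among which r varied widely: from 0.21 to 0.80 for Stmn1 with Ppia and from 0.14 to 0.81 for Stmn3 with Ppia.

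**Figure D5:**
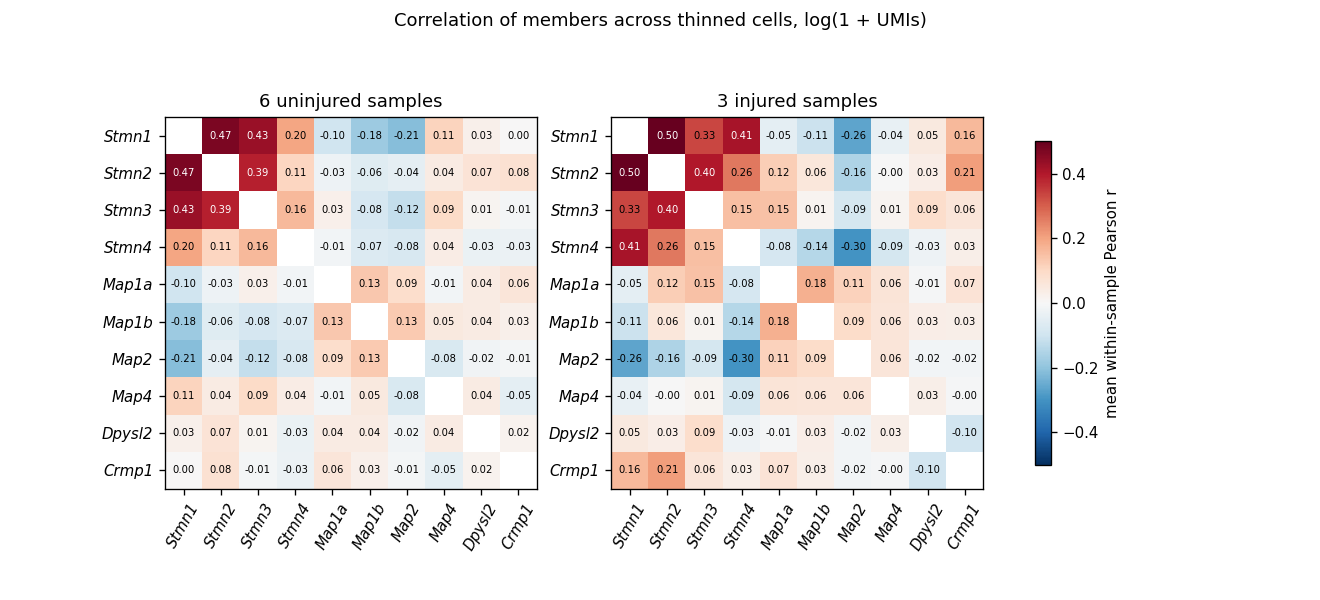
Mean within-sample Pearson r (colour, printed in each square) between members across thinned cells, in the 6 uninjured (left) and 3 injured (right) samples. The mean r is positive for every pair of stathmins, up to 0.50 for Stmn1 and Stmn2. It is also positive among Map1a, Map1b and Map2, at most 0.18, and Stmn4 and Map2 reach -0.30 in injured samples.

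Atf3, a transcription factor of injured neurons, split the injured cells within each sample. Atf3-positive cells (at least 2 thinned UMIs) were 62.8 to 69.3% of the thinned cells of the 3 injured samples, and cells with 0 UMIs were the comparison, with the sample as a block. In edgeR 6 members were higher in Atf3-positive cells, where 9.52% of 8636 genes were: Stmn1 (log2 fold change 0.49, 1923 against 1382 CPM, adjusted p = 0.00889), Stmn2 (0.62, adjusted p = 7.29e-04), Stmn3 (0.47, adjusted p = 0.0120), Map1a (0.73, adjusted p = 2.78e-04), Map2 (0.44, adjusted p = 0.0238) and Crmp1 (0.62, adjusted p = 0.00143). Each was higher in 3 of 3 samples. Stmn4, which rose the most after ONC, had 976 and 941 CPM in Atf3-positive and negative cells (log2 fold change 0.07, adjusted p = 0.799). With library totals alone 5 were called, where 7.54% of genes were higher. Map2 was not among them (log2 fold change 0.38, adjusted p = 0.0536), though higher in 3 of 3 samples. Only injured cells were compared, so these differences lie beside the rise after ONC and were not tested against it.

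Subtype markers split cells in the same way, over samples with at least 5 cells in each class. Opn4, the photopigment of intrinsically photosensitive RGCs, marked 1.49 to 6.19% of thinned cells in 9 samples. Opn4-positive cells had lower Stmn4 (log2 fold change -1.16, 234 against 525 CPM, adjusted p = 3.32e-04), Map1a (-0.82, adjusted p = 0.0176) and Crmp1 (-0.93, adjusted p = 0.0151), each higher in only 1 of 9 samples, where 8.20% of genes were lower. Map1a was not called with library totals alone (adjusted p = 0.0577), and with at least 1 UMI as the limit neither Map1a (adjusted p = 0.112) nor Crmp1 (adjusted p = 0.0682) was. Positive cells were 5 to 16.5 in a sample. Spp1-positive cells, Spp1 being a gene of alpha RGCs, could be compared in uninjured 5, injured 1 and injured 3/4 (5, 10 and 27.5 positive cells) and had lower Stmn1 (-1.03, adjusted p = 0.00741) and Stmn4 (-1.42, adjusted p = 4.13e-04), higher in 0 of 3 samples, where 2.31% of genes were lower. With library totals alone both were called lower and Stmn3 was called higher (0.67, adjusted p = 0.00849, higher in 3 of 3 samples), where 1.98% of genes were higher. Eomes-positive cells (7 samples, 5 to 8 positive cells in each) had lower Stmn4 (-1.11, adjusted p = 0.00409), where 6.18% were. Foxp2 and Cartpt gave 0 members called in edgeR, against 5.74% and 2.42% of genes in either direction. Cartpt-positive cells were 17.5 to 35.5% of thinned cells in uninjured but 1.79 to 4.44% in injured samples (6 to 12 cells). For Foxp2 the shares were 6.19 to 15.9% and 4.96 to 7.04%. The part of such shifts in the injury changes was not tested. At an unadjusted p under 0.05 Foxp2 and Cartpt gave 2 and 1 members, with no share of all genes at that threshold to set beside them. With at least 2 UMIs as the limit, Neurod2 and Tbr1 could not be fitted, since fewer than 3 samples held 5 positive cells. With at least 1 UMI edgeR called 0 members for Neurod2 (5 samples, 3.61% of genes called in either direction) and 0 for Tbr1 (7 samples, 3.13%). There 1 and 3 members had an unadjusted p under 0.05, again without a share of all genes at that threshold. The depths of positive cells are equal by thinning, and the members were tested beside all genes.

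Promoters of 6 of the 10 members were matched by symbol in RefSeq's table (GRCm38.p6, 250 bases before to 50 after a start): Stmn3, Map1a, Map1b, Map2, Map4 and Crmp1. Stmn1, Stmn2, Stmn4 and Dpysl2 have no entry. The windows of Map2 and Crmp1 are shown because these members rose, with capitals at the letters of a motif found on either strand. Map2 lies at chr1:66175079-66175378 (forward strand, 77.7% G and C), and Crmp1 has 2 starts, at chr5:37241808-37242107 and chr5:37245514-37245813 (forward strand, 77.0% and 61.0% G and C).
Map2: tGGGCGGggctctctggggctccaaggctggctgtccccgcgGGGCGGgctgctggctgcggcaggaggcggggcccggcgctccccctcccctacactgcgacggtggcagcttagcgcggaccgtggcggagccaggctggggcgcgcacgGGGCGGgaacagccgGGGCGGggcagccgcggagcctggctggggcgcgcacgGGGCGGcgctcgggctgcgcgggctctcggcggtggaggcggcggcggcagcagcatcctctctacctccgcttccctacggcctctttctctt
Crmp1 start 1: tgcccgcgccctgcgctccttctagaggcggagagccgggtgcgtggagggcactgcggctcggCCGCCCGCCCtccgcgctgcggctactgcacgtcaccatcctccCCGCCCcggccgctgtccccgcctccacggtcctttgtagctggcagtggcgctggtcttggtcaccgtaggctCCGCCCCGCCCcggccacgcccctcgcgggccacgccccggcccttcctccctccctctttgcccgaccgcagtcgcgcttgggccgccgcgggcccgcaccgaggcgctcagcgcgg
Crmp1 start 2: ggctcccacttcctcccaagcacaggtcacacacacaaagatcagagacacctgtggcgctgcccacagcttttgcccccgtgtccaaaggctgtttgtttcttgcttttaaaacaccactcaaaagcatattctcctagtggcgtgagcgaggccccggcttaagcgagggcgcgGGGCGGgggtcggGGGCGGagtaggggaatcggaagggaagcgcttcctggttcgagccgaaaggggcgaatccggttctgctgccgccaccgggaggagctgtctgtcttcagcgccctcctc
These motifs were chosen after the results were seen and were searched on both strands, and their matches do not overlap between motifs. Counted by promoter, the AP-1 letters TGANTCA were found in 0 of these members' 8 promoters and 7.81% of 32841 promoters kept from the table. Promoters of a left-out chromosome, of another length or with an undetermined base were not kept. The cyclic AMP response element TGACGTCA was found in 0 of 8 and 1.79%. The GC box GGGCGG was found in 6 of 8 (those of Map1a, Map1b and Map2, 1 of Map4 and both of Crmp1) and 35.7%, and CCAAT in 3 of 8 (that of Map1a and both of Map4) and 37.4%. All capitals in the windows shown are GC boxes, and these are matches of letters only.

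Other genes of microtubule biology were read as lists, against 21.3% of all genes tested that were higher, 22.7% that were lower and 44.0% called in either direction, with a median log2 fold change of -0.03. Of 3 other CRMPs, Dpysl3 rose (log2 fold change 1.06, adjusted p = 2.48e-04) and Dpysl4 fell (-0.92, adjusted p = 0.0104; without injured 3 and 4 -0.62, adjusted p = 0.0526), and the list's median was -0.01. Of 16 other structural proteins tested (17 listed), 5 rose and 4 fell (median 0.08), among them Mtus1 (1.23) and Dcx (0.91), a protein of migrating and growing neurons, and Tppp (-2.81) and Tppp3 (-2.25), which bundle microtubules. Dcx was not called in 4 of the 33 alternatives: without injured 1 (0.69, adjusted p = 0.0503), without injured 1 and 2 (0.36, with 1 injured sample left), with similar libraries summed (0.78, adjusted p = 0.0822) and in cells with 3 to 5% Malat1 (0.27, adjusted p = 0.360). Of 18 end-binding proteins 5 rose and 4 fell (median 0.08), with Clip4 (1.31) and Nav2 (1.20) up and Mapre3 (-1.11) and Slain1 (-0.86) down. None of 7 severing enzymes tested (8 listed) was called by edgeR (median 0.07). None had an unadjusted p under 0.05, as 7323 of the 14234 genes tested did. Of 15 tubulin-modifying enzymes tested (17 listed) 4 rose and 2 fell (median 0.33), Vash2 (1.56) and Ttll11 (0.88) up and Agbl4 (-1.77) and Ttll7 (-1.23) down. Of 16 genes of kinases of these proteins, or of activating subunits such as Cdk5r2, 2 rose and 6 fell (median 0.13). Gsk3b (0.99) and Mapk8 (0.60) were up, and Camk4 (-2.69) and Cdk5r2 (-1.47) were down. Of 13 tubulins 5 rose and 6 fell (median -0.45), with Tubb6 (5.15, from 0.337 to 2.04 CPM in uninjured to 36.1 to 52.3 CPM in injured samples) and Tubb2b (2.31) up and Tuba4a (-1.55) and Tubb4b (-1.43) down. Without injured 1 and 2, Nav2 (0.94), Mapre3 (-1.06), Ttll11 (0.71) and Mapk8 (0.61) kept their direction but were not called. That fit had 1 injured sample, so the uninjured samples alone gave its spread. In cells thinned to 5000 UMIs Mapk8 had a log2 fold change of 0.53 and was not called (adjusted p = 0.0923).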

How the data were processed

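The authors aligned reads to mm39 with Cell Ranger (7.0.1 in the submitters' processing notes, an older version in the paper's methods) and deposited, for selected RGCs, raw counts of UMIs. The deposit holds more injured cells than those methods count. Sums over all cells gave 1 profile per library (Python 3.11.15, numpy 2.4.6, pandas 2.3.3, scipy 1.17.1). Injured 3 and 4, which share barcodes, were averaged with rounding. The test was edgeR's (version 4.0.16, R 4.3.3) robust quasi-likelihood fit after filterByExpr and TMM, with Benjamini-Hochberg adjustment over all genes and a threshold of 0.05. Standard errors were derived from the fold change and F value. DESeq2 1.42.0 and limma 3.58.1 were alternatives. Marker fits used cells thinned to 5000 UMIs with the sample as a block. The test was checked on simulated data. Members and lists were chosen with earlier results of these data known. Named genes were the members, the 2 largest rises and falls of each list (average log2 CPM of at least 3), and the 2 genes most like each member. The motifs and promoters were chosen after the results were seen. Some planned values are not reported here.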

Additional observations from a re-analysis of the deposited data

How the results depend on the processing

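Stmn2, Stmn4, Map2 and Crmp1 were called higher under all 33 alternatives, and 4 to 5 members were called higher in each. Where 5 were, genes higher were 4080 and 3857 of 13943 in libraries 1 to 4, without and with the replicate block. Without uninjured 3 and 4 they were 3006 of 13419. Of the 33, 4 were chosen after seeing the data: leaving out injured 1 and 2, or uninjured 1 and 2, 3 and 4, or 5 and 6. Without injured 1 and 2 only 1 injured sample was left, and the uninjured samples alone gave the spread. The count of members called lower, 0 in edgeR, was 2 with DESeq2, 2 with limma-voom, 1 with upper-quartile factors, 1 with library totals alone, 1 with thinned cells, 1 with all 10 libraries as separate samples, 1 without uninjured 3 and 4, 1 without uninjured 5 and 6, and 0 to 1 with 1 library left out. In that order, genes lower were 3328, 4152, 3506 and 3598 of 14234, 2245 of 11124 and 3724 of 14052. Next came 2927 of 13419 and 3885 of 14207. They were 2949 of 13896 without uninjured 3 and 2965 of 13885 without uninjured 4, where 1 member was called lower. With libraries 1 to 4 of each condition 2 members were called lower, and 1 with the replicate block, where 4150 and 3925 of 13943 genes were lower. The genes called in either direction were 8230 and 7782. Both fits count injured 3 and 4, which share barcodes, as separate samples, and the block pairs libraries by replicate number, though no uninjured library was most like the injured library of its number. Genes called were 3528 among cells with 3 to 5% Malat1 and 3160 without injured 1 and 2, where fewer cells or samples were left. The log2 fold change of Stmn1 turned to 0.25 with limma-voom, 0.00893 in cells without Xist, 0.23 in libraries 1 to 4, 0.26 with the replicate block and 0.25 without uninjured 5 and 6, and ranged from -0.16 to 0.0618 with 1 library left out. That of Stmn3 turned to 0.16 with limma-voom, 0.17 in cells with 3 to 5% Malat1, 0.33 in libraries 1 to 4, 0.32 with the block (adjusted p = 0.0478), 0.0408 without injured 1 and 2 and 0.30 without uninjured 5 and 6, and ranged from -0.18 to 0.0402 with 1 library left out. Map1a turned to 0.0445 without uninjured 3 and 4. The lowest values of Stmn1 and Stmn3 were -0.42 and -0.55 in cells without mCherry, and without uninjured 3 and 4 they were -0.30 and -0.28. With at least 1 UMI as the marker limit, 1 member was called lower for Opn4 and 2 for Eomes, where 6.91% and 5.83% of genes were lower. With library totals alone 2 were called lower for Opn4, where 6.17% of genes were. For Spp1 3 were called with library totals alone, where 4.36% of genes were in either direction. The cause of these shifts was not tested. Depth limits the shares: cells under 5000 UMIs were not used.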
